A study of Homo sapiens with 8 samples.

Results

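The human genome holds many truncated or diverged copies of the genes for 7SL and 7SK RNA, and 353 of these copies had short reads in nuclei of HAP1 cells. They are the loci whose GENCODE symbol is RN7SL, a number and P (copies of 7SL) or RN7SKP and a number (copies of 7SK), with a value above 0 in at least 3 of the 6 short-read libraries. The table of short reads holds 62635 genes, of which 269 were 7SL copies and 84 were 7SK copies by this rule. GENCODE names 677 7SL and 293 7SK copies, of which 43 and 11 had no row of their own. Of the remaining rows, 244 and 161 were at 0 in every library, and 121 and 37 were above 0 in only 1 or 2 libraries. Copies just inside the rule, above 0 in exactly 3 libraries, had a median of 1.00 normalized counts over the 6 libraries for 7SL (53 copies) and 1.36 for 7SK (17 copies). Copies just outside it, above 0 in 2 libraries, had 0.377 and 0.394. A locus counted as inside a gene when a protein-coding gene or lncRNA on the same strand held its whole span, which was so for 170 of the 7SL copies and 45 of the 7SK copies. Of these 215 copies, 1, RN7SL145P in SACM1L, overlapped an exon of its host, and the others were intronic.

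HAP1 is a near-haploid line of leukemia origin, untreated here, and the comparison asked which RNAs stay with chromatin when nuclei are extracted with urea and detergent. The pellet of that extraction is the chromatin fraction (3 short-read libraries) and the supernatant is the nucleoplasm fraction (3 short-read libraries), both from 3 independent cultures of this 1 line. Another 2 libraries are long-read cDNA of the chromatin fraction alone, made after adding poly(A) tails by enzyme. ERCC standards went into every fraction before RNA extraction, and ribosomal RNA was removed. One label names chromatin for all 8 libraries, so the fractions were taken from the titles, and MALAT1 and PVT1 (higher in chromatin) and GAPDH and B2M (higher in nucleoplasm) all went with the titles. Of the blood cell genes looked up, PTPRC, SPI1, GATA1 and ITGAM were at 0 in all 6 libraries, CD34 had at most 3 reads in a library, and KIT had 1409 to 1867 normalized counts. Depth, as read counts that StringTie assigned to loci, was 38895027 to 43804918 per library in chromatin and 75737601 to 79523938 in nucleoplasm. A normalized count is the read count that StringTie derived for a locus divided by the library's size factor, so it is not corrected for length. These are bulk libraries, in which fewer cells that hold an RNA and less of it per cell cannot be told apart.

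7SL RNA is the backbone of the signal recognition particle, which binds signal peptides as they leave the ribosome and brings the ribosome to the endoplasmic reticulum. It is made by RNA polymerase III, is assembled with proteins in the nucleus and acts in the cytosol. Alu repeats derive from its ends, and RN7SL1, RN7SL2 and RN7SL3 are the functional genes. 7SK RNA, also a product of RNA polymerase III, stays in the nucleus, where it holds the kinase P-TEFb inactive with the proteins LARP7, MEPCE and HEXIM1. RN7SK is its functional gene. Copies of both RNAs were spread by reverse transcription and inserted mostly without a promoter, and GENCODE lists them as pseudogenes.

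The sequences below show how far copies of one family differ in their likeness to the parent over the length of a read, with 7SK as the example. The first 300 bases of RN7SK (chr6:52995621-52995920, plus strand) are the parent. In the copies, capitals mark bases inside a stretch of 50 bases, the length of a read, that a parent of the family matches on the same strand with at most 2 mismatches and no gap, called here a near-parent window. RN7SKP80 (chr22:42565048-42565330, minus strand, in RRP7BP) kept 76.3% of its bases in such windows, and RN7SKP16 (chr1:33336566-33336864, minus strand, in an intron of PHC2) none. All are read 5′ to 3′ from hg38, the copies over the span of the locus in the table, and positions here are on hg38. Of the 7SL copies described later, RN7SL4P (chr3:15738515-15738809, plus strand), the one with the most reads, had 75.6% of its 50-base windows near-parent, and RN7SL587P (chr14:77547566-77547846, minus strand, in an intron of SPTLC2) 14.2%. These are shares of windows, not of bases, so they do not compare with the 76.3% of RN7SKP80. RN7SL67P (chr12:19303480-19303775, plus strand, in an intron of PLEKHA5) and RN7SL471P (chr6:28977475-28977773, plus strand, outside genes) had none.
RN7SK: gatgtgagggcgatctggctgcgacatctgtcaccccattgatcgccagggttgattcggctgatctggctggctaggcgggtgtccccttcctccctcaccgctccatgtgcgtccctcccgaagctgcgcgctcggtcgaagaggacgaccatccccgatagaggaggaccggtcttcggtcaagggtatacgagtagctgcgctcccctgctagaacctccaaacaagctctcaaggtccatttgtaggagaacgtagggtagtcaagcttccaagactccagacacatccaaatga
RN7SKP80: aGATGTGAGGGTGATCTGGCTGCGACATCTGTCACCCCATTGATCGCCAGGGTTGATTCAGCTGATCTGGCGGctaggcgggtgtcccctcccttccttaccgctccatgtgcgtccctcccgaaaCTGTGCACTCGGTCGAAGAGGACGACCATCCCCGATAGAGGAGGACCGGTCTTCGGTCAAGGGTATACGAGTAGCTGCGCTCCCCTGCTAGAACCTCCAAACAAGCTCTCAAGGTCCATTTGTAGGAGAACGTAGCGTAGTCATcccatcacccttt
RN7SKP16: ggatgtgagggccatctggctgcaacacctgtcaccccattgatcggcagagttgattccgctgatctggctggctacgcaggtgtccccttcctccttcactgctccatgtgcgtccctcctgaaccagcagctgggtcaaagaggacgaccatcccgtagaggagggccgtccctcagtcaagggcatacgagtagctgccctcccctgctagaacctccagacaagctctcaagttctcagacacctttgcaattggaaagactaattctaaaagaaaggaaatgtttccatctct

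Copies of both families were far from identical to their parents. Identity to the closest parent had a median of 80.7% over the 269 7SL copies (range 56.2 to 89.8%) and 78.2% over the 84 7SK copies (range 55.9 to 93.0%). The median length was 293 bases for 7SL copies and 309 for 7SK copies, beside the 299 and 328 bases of RN7SL1 and RN7SK. A stretch of 50 bases identical to a parent was found in 8 7SL copies and 8 7SK copies, and a near-parent window in 77 and 54. For 204 of the 353 copies no 50-base stretch occurred anywhere else in hg38 (alternate contigs left out), and for 320 under 50% of them did. Reads of a copy that match a parent cannot be assigned with certainty, so the level of a copy with near-parent windows is uncertain. How many of its reads came from a parent was not tested. The split by near-parent windows was chosen after the values were seen and is given as a description.

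The parents themselves lay on opposite sides of the comparison. RN7SL1 had 94570.4, 70918 and 89893 normalized counts in the 3 chromatin libraries and 2224089, 2470704 and 2686388 in the 3 nucleoplasm libraries. Every nucleoplasm library was above every chromatin library, and the nucleoplasm mean was 28.9 times the chromatin mean (log2 fold change, chromatin over nucleoplasm, -4.86 ± 0.13 (SE), adjusted p = 1.07e-08 by limma). RN7SL2 and RN7SL3 share 1 row (chr14:49853616-49864326, minus strand), which had 157542, 116137 and 143739 normalized counts in the 3 chromatin libraries and 4028822, 4304905 and 4285127 in the 3 nucleoplasm libraries. That row fell on the same side, 30.2 times higher in nucleoplasm (log2 -4.93 ± 0.12 (SE), adjusted p = 1.02e-08 by limma). RN7SK had 800477, 650993 and 734557 normalized counts in the 3 chromatin libraries and 486508, 469213 and 468515 in the 3 nucleoplasm libraries. It was higher in chromatin in all 3 libraries, but by much less (log2 0.61 ± 0.10 (SE), adjusted p = 2.96e-04 by limma), and with the libraries set to the same ERCC total its log2 fold change was -0.71, on the other side. Under that scaling the median over all genes went from -0.02 to -1.33, so changes under it are read relative to that shift.

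Most copies were a small fraction of their parents. Over the 6 libraries, 45 7SL copies averaged under 1 normalized count, 145 from 1 to under 10, 67 from 10 to under 100, 7 from 100 to under 1000 and 5 at least 1000. For the 7SK copies the counts were 7, 49, 19, 3 and 6. The highest 3 copies of a family in each library held 94.9 to 96.7% of the summed 7SL copies and 83.8 to 85.5% of the summed 7SK copies. Sums over a family therefore describe a handful of loci. The summed 7SL copies came to 96938, 74403 and 86561 normalized counts in chromatin and 1300014, 1451290.1 and 1613302 in nucleoplasm, 16.9 times higher in nucleoplasm. The summed 7SK copies came to 411386, 341399 and 373329.7 in chromatin and 221636, 214773 and 222608 in nucleoplasm, 1.71 times higher in chromatin. In the plot of levels a few abundant loci lie toward their parents. Low 7SK copies lie almost all above the diagonal, and low 7SL copies lie on both sides of it, with the chromatin mean higher in 195 of 269 7SL and 82 of 84 7SK copies on the deposited scale.

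**Figure D1:**
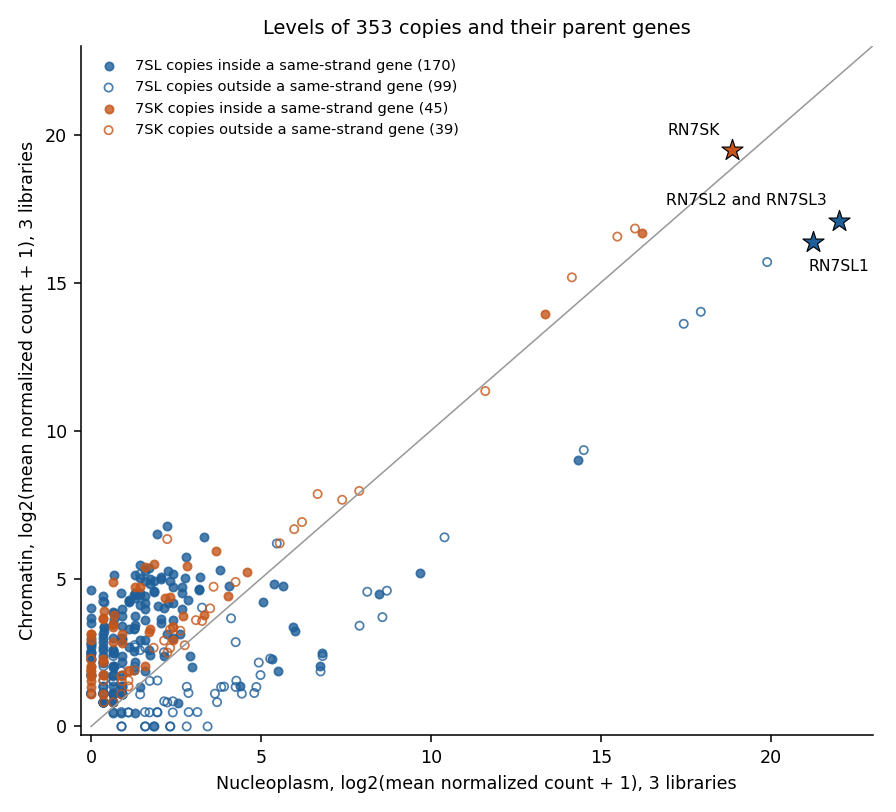
Mean level of each of the 353 copies in nucleoplasm (x axis) and chromatin (y axis), as log2(mean normalized count + 1) over 3 libraries each, with the parent genes as stars and the diagonal as a line. Blue marks 7SL and orange 7SK, filled circles are copies inside a same-strand gene and open circles are others. The abundant 7SL copies lie below the diagonal with RN7SL1, the abundant 7SK copies lie close to it with RN7SK, and most low copies inside genes lie above it.

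Counted over all members without the filter on low values, 7SL copies went both ways and 7SK copies mostly one way. The rule for members lets a copy enter through a single fraction, and such a copy had to separate. In nucleoplasm 21 7SL and 14 7SK copies were at 0 in all 3 libraries, and in chromatin 10 and 0. Of the 269 7SL copies, 155 had all 3 chromatin libraries above all 3 nucleoplasm libraries, 61 the reverse, and in 53 the fractions overlapped. Of the 84 7SK copies the counts were 61, 1 and 22, though the median log2 fold change of the tested 7SK copies, 0.90, became -0.42 with the same ERCC total (7SL 1.81 and 0.58). Of all genes above 0 in at least 3 libraries, 46.2% had the chromatin libraries above and 37.5% the nucleoplasm libraries above. A test across all genes (limma on log2(normalized count + 1), called at an adjusted p under 0.05 and over 4-fold) covered 120 copies, those longer than 200 bases that reached 10 normalized counts in 3 or more libraries. It called 43 of 91 tested 7SL copies in chromatin and 33 in nucleoplasm, where 21.2% and 8.47% of all 26066 tested genes were called. Of the 29 tested 7SK copies, 10 passed in chromatin and 0 in nucleoplasm. In that direction 1 copy had an unadjusted p under 0.05, and edgeR and DESeq2 also called 0. Passing the filter favoured copies that were high in a single fraction: 45 tested 7SL copies and 10 tested 7SK copies passed it through chromatin alone, and 20 7SL copies through nucleoplasm alone, so these had to differ. The 233 copies that were not tested (2 of them for a span of at most 200 bases) summed to a mean of 961 normalized counts per chromatin library and 324 per nucleoplasm library. With the same ERCC total in each library, chromatin calls fell to 26 7SL and 6 7SK copies, and 36 7SL copies were called in nucleoplasm, where 11.9% and 34.4% of all tested genes were called in chromatin and nucleoplasm.

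The most abundant 7SL copies lay outside same-strand genes and went with the parent. RN7SL4P, antisense to ANKRD28, had 60305, 45541 and 53444 normalized counts in chromatin and 870770.5, 992806 and 1064631 in nucleoplasm. All nucleoplasm libraries were above all chromatin libraries, by 18.4 times on the means (log2 -4.20 ± 0.12 (SE), adjusted p = 1.27e-08 by limma), and 58.1% of its 50-base windows were identical to a parent. RN7SL396P averaged 16559 ± 2211 normalized counts (SD, n = 3) in chromatin and 251966 ± 35569.6 in nucleoplasm, and RN7SL752P (chr3:129591349-129591635, plus strand, antisense to PLXND1) 12494 ± 1757 normalized counts (SD, n = 3) in chromatin and 177813 ± 22996 in nucleoplasm. RN7SL128P (chr6:20421583-20421887, minus strand), antisense to E2F3, a cell cycle transcription factor gene, averaged 647 ± 108 normalized counts (SD, n = 3) in chromatin and 23152 ± 2136 in nucleoplasm, which is 35.8 times higher in nucleoplasm. All 3 were called in nucleoplasm, at log2 fold changes of -3.93, -3.83 and -5.17. At low level, RN7SL836P (chr19:45651510-45651805, plus strand) had 3.49, 0 and 4.39 in chromatin and 89.5, 116 and 115 in nucleoplasm, among the lowest 3 log2 fold changes of the family (-5.21 ± 0.58 (SE), adjusted p = 3.02e-05 by limma). Its chromatin level rests on few reads, and without chromatin replicate 2, which was at 0, the log2 fold change was -4.44.

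A few copies outside genes were high in nucleoplasm without a near-parent window. RN7SL471P, on the short arm of chromosome 6, had 89.7, 78.1 and 81.2 normalized counts in chromatin and 1179, 1416 and 1457 in nucleoplasm (log2 -4.00 ± 0.10 (SE), adjusted p = 1.02e-08 by limma), although its longest run shared with a parent was 15 bases and its identity to RN7SL1 75.6%. RN7SL575P (chr2:95003545-95003843, minus strand) had 5.82, 2.40 and 4.39 in chromatin and 104, 104 and 127 in nucleoplasm, and RN7SL218P had 1.16, 1.20 and 2.20 in chromatin and 14.9, 10.3 and 14.4 in nucleoplasm. These 3, named after their values were seen, were the only tested 7SL copies without a near-parent window that were called in nucleoplasm, of 52. RN7SL575P and RN7SL218P had passed the filter through nucleoplasm alone, so these had to differ. No 50-base stretch of RN7SL471P or RN7SL575P occurred elsewhere in hg38. In the other direction, the copies outside genes that were called in chromatin were RN7SL569P (37.3, 34.8 and 30.7 in chromatin, 1.76, 1.72 and 1.69 in nucleoplasm) and RN7SL76P (14.0, 18.0 and 20.9 in chromatin and 0, 0 and 0.845 in nucleoplasm), both without a near-parent window, and RN7SKP32, described with its family. All 3 had passed the filter through chromatin alone, so these too had to differ.

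The 4 most abundant 7SL copies inside genes were high in nucleoplasm. RN7SL587P, in SPTLC2, a subunit of the enzyme that starts sphingolipid synthesis, had 483, 431 and 636 normalized counts in chromatin and 18539.8, 21263 and 21615 in nucleoplasm, the lowest log2 fold change of the family (-5.32 ± 0.13 (SE), adjusted p = 1.02e-08 by limma). RN7SL573P in KCTD2 had 31.4, 24.0 and 51.6 in chromatin and 585, 413 and 1478 in nucleoplasm. The nucleoplasm libraries of this copy differed by a wide margin among themselves, yet all were above the chromatin libraries. RN7SL230P, in TOR1AIP1, a gene for an inner nuclear membrane protein, averaged 21.4 ± 5.20 normalized counts (SD, n = 3) in chromatin and 357 ± 10.5 in nucleoplasm, and RN7SL38P 4.57 ± 1.89 normalized counts (SD, n = 3) in chromatin and 109.6 ± 2.95 in nucleoplasm. Each of the 4 held at least 1 near-parent window. The 3 copies with the highest log2 fold changes were low loci without such a window. RN7SL16P, in the splicing helicase gene DHX15 (chr4:24563193-24563461, minus strand), had 101, 86.5 and 80.1 in chromatin and 3.51, 0.861 and 4.22 in nucleoplasm (log2 4.67 ± 0.38 (SE), adjusted p = 3.67e-06 by limma). RN7SL683P, in SIPA1L1 (chr14:71448689-71448958, plus strand), had 23.3, 28.8 and 17.6 in chromatin and 0 in all 3 nucleoplasm libraries, at least 8.99-fold higher in chromatin when nucleoplasm is set at 3 reads per library. RN7SL67P in PLEKHA5 had 102, 127 and 97.7 in chromatin and 3.51, 4.30 and 3.38 in nucleoplasm, 29.3 times higher in chromatin (log2 4.54 ± 0.19 (SE), adjusted p = 5.86e-08 by limma). None of these sets of libraries overlapped.

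The abundant 7SK copies were close to RN7SK in their ratio, and the 7SK copies with the highest ratios were low in level. The abundant copies outside genes were RN7SKP71 (chr12:112267077-112267394, plus strand, antisense to HECTD4), with 132307, 107659 and 109368 normalized counts in chromatin and 64881, 64791 and 67748 in nucleoplasm, RN7SKP203 (chr2:76445079-76445410, minus strand), which averaged 96373 ± 8142 normalized counts (SD, n = 3) in chromatin and 45905 ± 2291 in nucleoplasm, and RN7SKP255 (chr14:89712511-89712823, plus strand), which averaged 37102 ± 3754 normalized counts (SD, n = 3) in chromatin and 18165 ± 1315 in nucleoplasm. Their log2 fold changes were 0.82, 1.07 and 1.03, under the 4-fold minimum, and with the same ERCC total they were -0.51, -0.26 and -0.30, on the other side of 0 like RN7SK. RN7SKP185 (chr20:37975156-37975481, minus strand) had 2894, 2179.7 and 2677 in chromatin and 3037, 3122 and 3154 in nucleoplasm, the lowest ratio among tested 7SK copies (log2 -0.27 ± 0.10 (SE), adjusted p = 0.0231 by limma), and when every library was scaled to an equal total its log2 fold change was 0.19, in the other direction. RN7SKP48 averaged 248 ± 45.2 normalized counts (SD, n = 3) in chromatin and 236 ± 16.7 in nucleoplasm and its libraries overlapped (log2 0.05 ± 0.14 (SE), adjusted p = 0.719 by limma), and RN7SKP227 averaged 201 ± 23.1 normalized counts (SD, n = 3) in chromatin and 167 ± 6.02 in nucleoplasm.

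Inside genes, RN7SKP80 had 117253, 94968 and 103691 normalized counts in chromatin and 74495, 75106 and 76109 in nucleoplasm, and RN7SKP9 in UBAC2 (chr13:99205708-99206006, plus strand) 17621, 14659 and 15034 in chromatin and 10574, 10380.3 and 10723 in nucleoplasm. Both were higher in every chromatin library, with log2 fold changes of 0.48 and 0.57 that became -0.84 and -0.75 with the same ERCC total. The next in level were far lower. RN7SKP292 in TBC1D14 had 54.7, 62.4 and 63.7 in chromatin and 12.3, 12.9 and 10.1 in nucleoplasm and was called in chromatin. RN7SKP180, in the zinc transporter gene SLC39A11, had 36.1, 27.6 and 45.0 in chromatin and 22.8, 21.5 and 25.3 in nucleoplasm, with the lowest chromatin library just above the highest nucleoplasm library, and its log2 fold change of 0.60 became -0.68 with the same ERCC total. The highest log2 fold changes belonged to copies without a near-parent window: RN7SKP95, in the metalloprotease gene ADAM10, with 38.4, 25.2 and 20.9 in chromatin and 0, 0 and 1.69 in nucleoplasm, where it had 2 reads in all, RN7SKP32, outside genes, with 69.9, 90.1 and 79.0 in chromatin and 4.39, 1.72 and 5.07 in nucleoplasm, and RN7SKP97 in ASPH with 36.1, 51.6 and 42.8 in chromatin and 5.27, 1.72 and 0.845 in nucleoplasm. RN7SKP16 in PHC2, shown above for its sequence, had 47.8, 44.4 and 29.6 in chromatin and 1.76, 1.72 and 2.53 in nucleoplasm. In each of these 4 copies every chromatin library was above every nucleoplasm library, which the plot of single libraries shows for those named by rule.

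**Figure D2:**
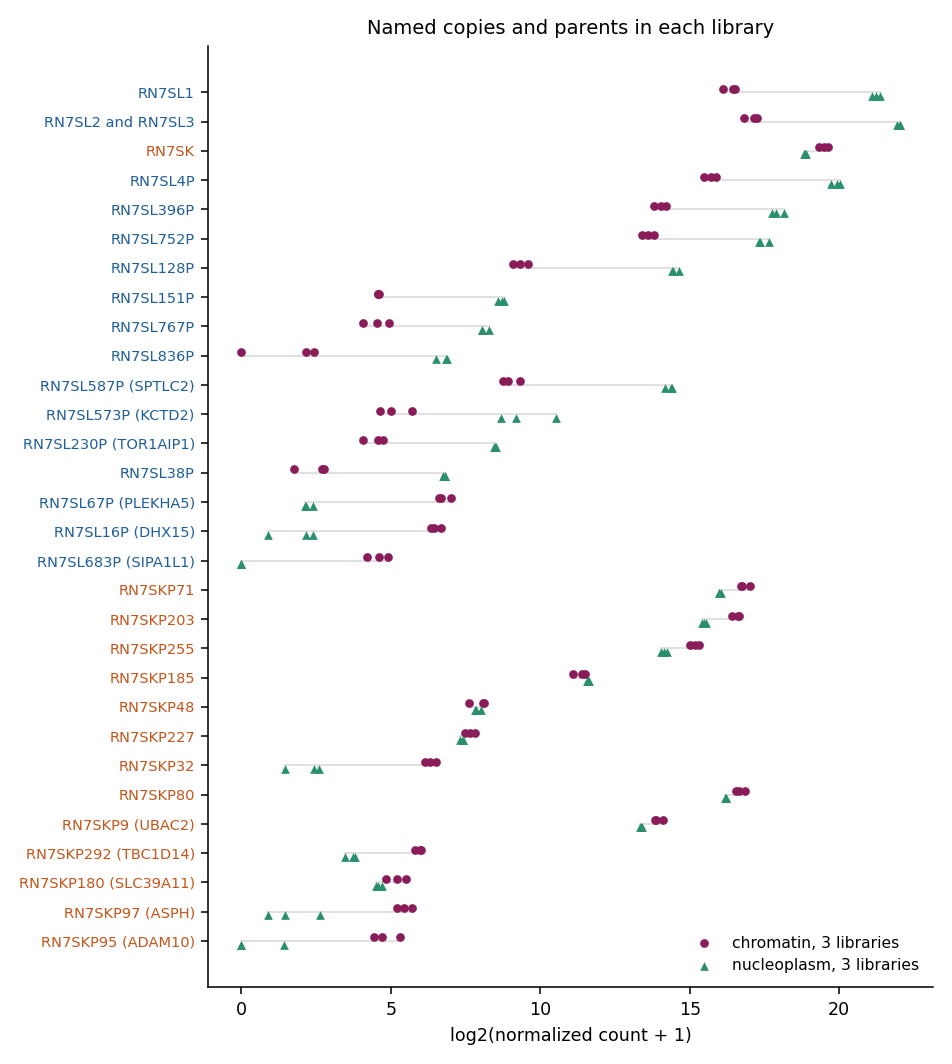
Level of the parents and the copies named by rule in each short-read library, as log2(normalized count + 1) on the x axis, with circles for the 3 chromatin and triangles for the 3 nucleoplasm libraries and host genes in brackets where the host was tested. Blue names are 7SL and orange names 7SK. Abundant 7SL copies have triangles to the right, 7SK copies such as RN7SKP80 have both close together, and copies such as RN7SL67P (PLEKHA5) and RN7SKP95 (ADAM10) have circles to the right.

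Copies inside genes were more often higher in chromatin than copies outside, where both directions were common. Of the 215 copies inside a same-strand gene, 162 had the chromatin libraries above, 16 the nucleoplasm libraries above and 37 overlapped. Of the 138 copies outside, the counts were 54, 46 and 38. By the rule for members, the 26 inside and 9 outside at 0 in nucleoplasm had to separate, as had the 1 and 9 at 0 in chromatin. Among tested copies, 50 of 77 inside were called in chromatin and 10 in nucleoplasm (median log2 fold change 2.65), against 3 and 23 of 43 outside (median -2.52). The filter fixed much of this, since 52 of the tested copies inside and 3 outside passed it through chromatin alone, and 5 and 15 through nucleoplasm alone. Without the filter on low values the fitted medians were 1.96 over 213 copies inside and 0.41 over 138 outside, beside 0.21 over all genes fitted that way, so the sign of the outside median depends on the filter. With the 26 and 9 copies at 0 in nucleoplasm and the 1 and 9 at 0 in chromatin set at the bound that 3 reads give, these medians were 1.57 and 0.23. With the same ERCC total, chromatin calls inside genes came to 29 and nucleoplasm calls to 12. Intronic loci that are not 7SL or 7SK copies were called in chromatin in 71.7% and in nucleoplasm in 4.77% of the 3734 tested, with a median log2 fold change of 3.24. Of the 50 copies outside that lay antisense to a gene, 24 had the chromatin libraries above, 12 the nucleoplasm libraries above and 14 overlapped, and 6 of 14 tested were called in nucleoplasm. Of the 88 in no gene on either strand, 30 had the chromatin libraries above, 34 the nucleoplasm libraries above and 24 overlapped, and 3 and 17 of 29 tested were called in chromatin and nucleoplasm. Copies are not replicates of a condition, so these groups were compared by counts and not tested against each other.

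Within each family, position and likeness to the parent divided the copies further. Of the 135 7SL copies inside a gene with no near-parent window, 109 had the chromatin libraries above and 2 the nucleoplasm libraries above. Among these 135, 15 were at 0 in all nucleoplasm libraries, so these had to separate. Of the 44 tested, 39 were called in chromatin and 0 in nucleoplasm by limma, edgeR or DESeq2, and 0 had an unadjusted p under 0.05 in that direction. They ran from 1.46 to 4.67 on the log2 scale, but 40 had passed the filter through chromatin alone. Of the 35 7SL copies inside a gene with near-parent windows, 12 had the chromatin libraries above and 14 the nucleoplasm libraries above, and 2 and 10 of 18 tested were called. Among these 18, 3 had passed the filter through chromatin alone and 5 through nucleoplasm alone, so these had to differ. Among the 35, 1 was at 0 in all chromatin libraries, so it had to separate. The 2 called in chromatin were RN7SL559P in EYA3 and RN7SL220P in HERC4. Outside genes, 36 of 42 copies with near-parent windows had the nucleoplasm libraries above and 20 of 21 tested were called there. In chromatin 0 were called by limma, edgeR or DESeq2, and 0 had an unadjusted p under 0.05 in that direction. Of the 21, 13 had passed the filter through nucleoplasm alone, so these had to differ. Among the 42, 4 were at 0 in all chromatin libraries and 1 in all nucleoplasm libraries, and these had to separate too. Of the 57 outside genes with no near-parent window, 30 had the chromatin libraries above, 9 the nucleoplasm libraries above and 18 overlapped. Among these 57, 5 were at 0 in all nucleoplasm libraries and 5 in all chromatin libraries, so these had to separate. Of all genes above 0 in at least 3 libraries, 46.2% had the chromatin libraries above and 37.5% the nucleoplasm libraries above. Without the filter on low values the median log2 fold change of these 57 was 0.62, beside 2.17 for the 135 inside genes. The 8 tested of the 57 were spread from -4.48 to 3.91.

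For 7SK, 26 of the 30 copies with no near-parent window had the chromatin libraries above and 0 the nucleoplasm libraries above. Among these 30, 11 were at 0 in all nucleoplasm libraries, so these had to separate. All 7 tested were called in chromatin, each having passed the filter through chromatin alone. Of the 54 with near-parent windows, 35 had the chromatin libraries above and 18 overlapped. Among these 54, 3 were at 0 in all nucleoplasm libraries. Of the 22 tested, 3 (13.6%) were called in chromatin, beside 21.2% of all tested genes. They were RN7SKP292, RN7SKP38 in USP37 and RN7SKP78 in PFKFB3, all inside genes. Of the 9 tested inside genes, 3 had passed the filter through chromatin alone, and of the 13 outside, 0. The median of the 22 was 0.67 beside the 0.61 of RN7SK and, with the same ERCC total, -0.63 beside -0.71. The 13 tested outside genes lay between -0.27 and 1.13. None of them was called in chromatin by limma, edgeR or DESeq2, while 9 had an unadjusted p under 0.05 in that direction.

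**Figure D3:**
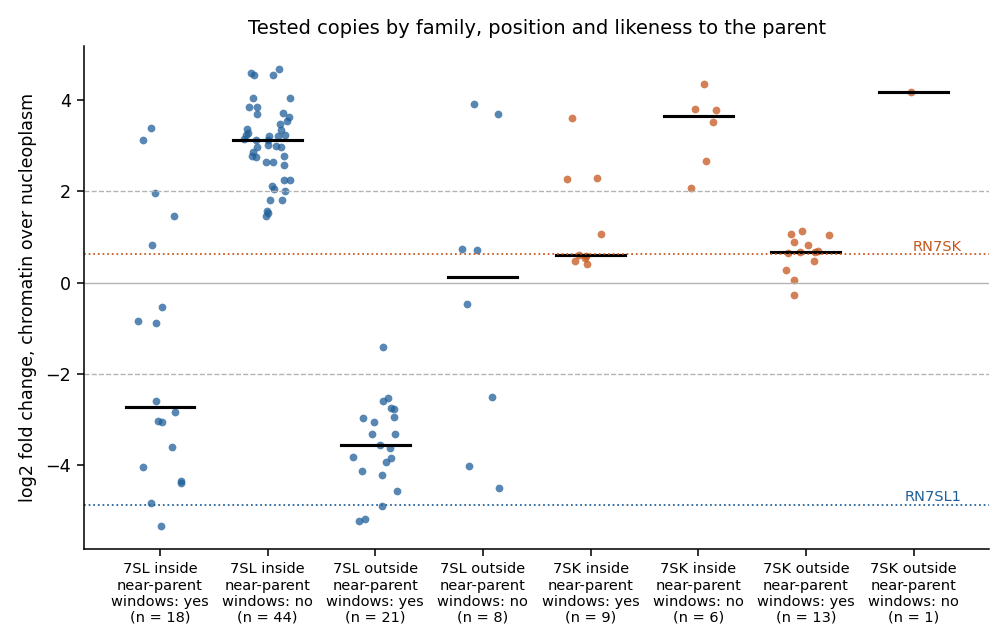
log2 fold change (chromatin over nucleoplasm, y axis) of the 120 tested copies in 8 classes by family, position in a same-strand gene and presence of near-parent windows. Points are copies, black bars class medians, dashed lines the 4-fold limits and dotted lines the values of RN7SL1 and RN7SK. 7SL copies inside genes without near-parent windows lie between 1.46 and 4.67, and 7SL copies outside genes with such windows lie between -5.21 and -1.40.

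Among 7SL copies the fold change moved toward that of RN7SL1 as the share of near-parent windows rose. The 192 copies with none had a median log2 fold change of 1.55 without the filter on low values, the 60 copies with above 0 and up to 10% of their windows -1.05, the 12 with above 10 and up to 30% -3.57, and the 5 above 30% -3.93, beside -4.86 for RN7SL1. With copies at 0 in a fraction at the bound that 3 reads give, the medians of copies with none and with any were 1.17 and -1.51 for 7SL and 1.84 and 0.67 for 7SK. For 7SK the medians by share were 2.18 (30 copies), 0.66 (31), 0.83 (16) and 0.63 (7), so the step lay between none and any. Level went with likeness too: median levels over the 6 libraries in these 4 classes were 2.67, 5.48, 15.3 and 95154 normalized counts for 7SL, and 3.68, 4.30, 6.76 and 27633 for 7SK. Across the 91 tested 7SL copies, Spearman's rho between the share of near-parent windows and the log2 fold change was -0.77 (Pearson's r -0.53), and across the 29 tested 7SK copies -0.59 (r -0.48). These copies share the same 6 libraries and parts of their sequence, so the coefficients are descriptions. Identity over the whole length gave a rho of -0.25 with the fold change in 7SL and -0.46 in 7SK. The longest run shared with a parent gave -0.61 in 7SL and -0.63 in 7SK.

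**Figure D4:**
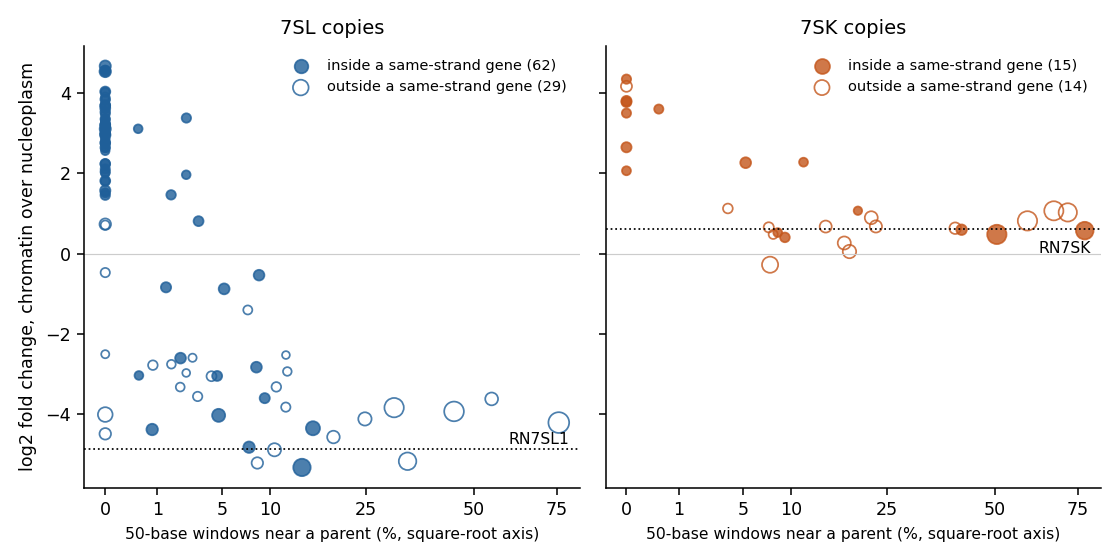
log2 fold change (chromatin over nucleoplasm, y axis) of the tested 7SL (left) and 7SK (right) copies against the percentage of their 50-base windows that match a parent with at most 2 mismatches (x axis, square-root scale). Filled circles are inside a same-strand gene, larger circles have a higher mean count, and dotted lines mark RN7SL1 and RN7SK. The 5 7SL copies above 30% lie between -5.17 and -3.62, and the 7 7SK copies above 30% between 0.48 and 1.07, near the line of RN7SK.

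Copies inside a gene were then set against the gene that holds them, in the same libraries. There were 69 tested copies whose host was also tested, and 67 of these hosts were within 4-fold between the fractions (median log2 fold change -0.28). The copy minus its host, on the log2 scale, had a median of 2.85. By limma on the difference in each library, 57 copies were more in chromatin than their host at an adjusted p under 0.05 and 9 more in nucleoplasm, where 84.0% and 9.15% of all 3674 pairs of a tested locus and its host were. The median difference over all pairs was 3.14, so the copies were near the background of loci inside genes. RN7SL16P differed from DHX15 by 4.53 ± 0.38 (SE), adjusted p = 1.35e-07. DHX15 itself had 19238, 19829 and 20917 normalized counts in chromatin and 18459, 17773 and 18072 in nucleoplasm, nearly level between the fractions on the deposited scale. RN7SKP292 differed from TBC1D14, an autophagy regulator gene, by 3.36 ± 0.23 (SE), adjusted p = 2.12e-08, and TBC1D14 had 4466, 4225 and 4732 in chromatin and 9476, 9459 and 9699.7 in nucleoplasm, higher in every nucleoplasm library while the copy was higher in every chromatin library.

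The 9 copies that were more in nucleoplasm than their host were all 7SL copies with near-parent windows. They were RN7SL587P, RN7SL573P, RN7SL230P, RN7SL166P, RN7SL660P, RN7SL741P, RN7SL838P, RN7SL359P and RN7SL726P. Of the 18 tested 7SL copies inside genes with such windows, 5 had passed the filter through nucleoplasm alone. With most hosts within 4-fold, the filter favoured this direction for such copies, so the list is a description. RN7SL587P differed from SPTLC2 by -3.82 ± 0.17 (SE), adjusted p = 3.54e-10, and SPTLC2 had 2902, 2378 and 2530.3 in chromatin and 7669, 7329 and 7073 in nucleoplasm. The lowest difference was that of RN7SL838P in ANO9, -5.28 ± 0.41 (SE), adjusted p = 6.10e-08 by limma. ANO9 was itself low, with 55.9, 51.6 and 49.4 in chromatin and 25.4, 17.2 and 8.45 in nucleoplasm. RN7SL166P lay in PSPC1, a paraspeckle protein gene whose own row was high in chromatin (log2 2.02), and the copy was at -0.88. Of the 49 pairs whose copy had no near-parent window, 47 were more in chromatin than the host and 0 more in nucleoplasm by limma, 0 also at an unadjusted p under 0.05. The filter nearly fixed this direction, as 40 of 44 such tested 7SL copies and 6 of 6 7SK copies had passed it through chromatin alone while most hosts were within 4-fold, so the count is a description. RN7SL75P in INVS was one that did not pass, differing by 0.47 ± 0.33 (SE), adjusted p = 0.190 by limma. All 12 7SK pairs were more in chromatin than the host, with differences from 1.77 to 5.26. RN7SKP9 differed from UBAC2 by 2.09 ± 0.17 (SE), adjusted p = 1.26e-07, and the pairs of RN7SKP180 with SLC39A11 and RN7SKP97 with ASPH by 1.77 and 3.10.

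**Figure D5:**
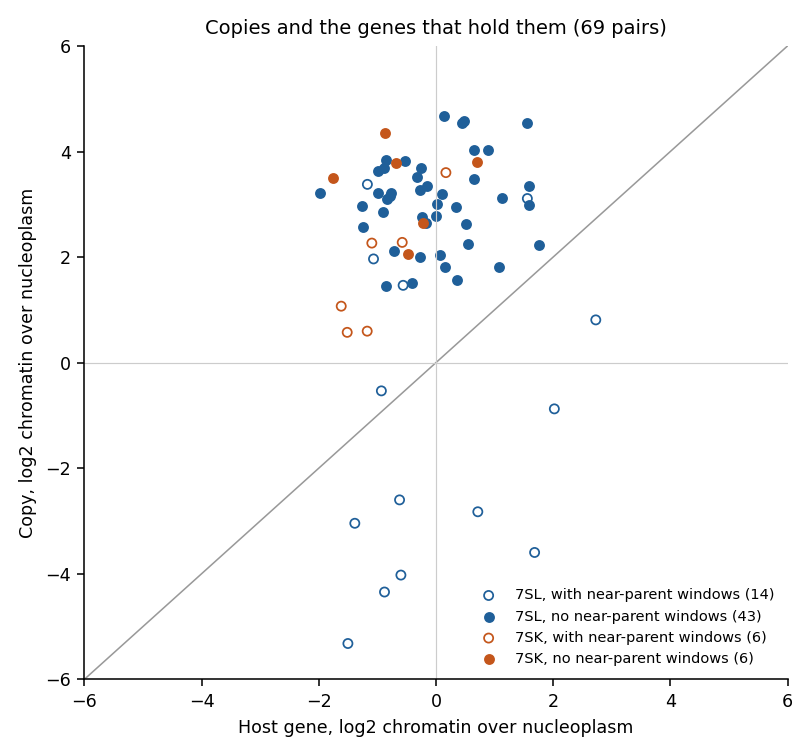
log2 fold change (chromatin over nucleoplasm) of 69 copies (y axis) against that of the gene that holds them (x axis), with the line of equal values. Blue is 7SL and orange 7SK, filled circles have no near-parent window and open circles have at least 1. Most points lie above the line, and the 9 pairs called below it are open blue circles.

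Few copies had the promoter and terminator letters searched for around them, and none of these shares was above that of all genes. The motif TGACGTCA, in the 100 bases before the start on the strand of the gene, was present for RN7SL1, for none of the 353 copies, and in 0.657% of the 62700 GENCODE genes on main chromosomes. TATAAA, between 40 and 15 bases before the start, was present for 4 7SL copies and 1 7SK copy (1.42% in all) and 1.81% of genes. TTTT within the 30 bases after the end was present for 36 7SL and 20 7SK copies (15.9% in all), for RN7SL1, and for 27.8% of genes. RN7SL2, RN7SL3 and RN7SK, all functional genes, held none of these letters in the windows searched, so the motifs do not separate the functional genes from the copies. These letters are descriptions of the windows searched on the strand of the gene, and the motif TGACGTCA reads the same on both strands, with starts and ends as GENCODE gives them.

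Long reads of the chromatin fraction covered part of the copies. Whether these reads were assigned a strand before they were quantified is not given in the sources used here, so the values are not known to be specific to the strand of a copy. Of the 353 copies, 138 (39.1%) were above 0 TPM in both long-read libraries, beside 34.4% of the 61313 GENCODE genes listed there. The copies had been chosen for values above 0 in short reads and the listed genes had not, so these shares are of unlike sets. Copies above 0 in both were 114 of 269 for 7SL and 24 of 84 for 7SK, and 98 copies had at least 1 TPM in both. Copies inside genes were above 0 in both in 40.9% and copies outside in 36.2%, and copies with near-parent windows in 48.9% and those without in 33.3%. By mean, the highest 7SL copies were RN7SL767P (chr3:113632704-113632998, plus strand) with 125 and 245 TPM, RN7SL151P (chr9:21699314-21699596, plus strand) with 95.6 and 160.3, and RN7SL396P with 76.9 and 138, where RN7SL1 had 1123 and 1959. The order was not that of the short reads. RN7SL767P had 22.1, 15.6 and 29.6 normalized counts in the short-read chromatin libraries, and RN7SL4P, far higher there, had 168 TPM in the first and 9.41 in the second long-read library. The highest 7SK copies were RN7SKP80 (108 and 74.9 TPM), RN7SKP255 (123 and 4.49) and RN7SKP71 (48.9 and 64.0), beside 2452 and 2866 for RN7SK. The 2 libraries differed widely for RN7SL4P and RN7SKP255, and with 1 fraction they allow no comparison between fractions.

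The proteins that bind the parents were listed apart from the copies, as 8 genes of the signal recognition particle and its receptor and 7 genes of the 7SK particle and P-TEFb. Of these 15 genes, 13 had a row under their own name and were tested. One of the 13 was called in nucleoplasm, beside 8.47% of all tested genes. It was SRP14, which binds the Alu end of 7SL with SRP9, with 1662, 1456 and 1659.8 normalized counts in chromatin and 8067, 7971 and 8137 in nucleoplasm (log2 -2.34 ± 0.06 (SE), adjusted p = 1.04e-08 by limma). The other SRP genes measured had log2 fold changes from -1.71 (SRP68) to -1.31 (SRP72), under the 4-fold minimum. Those of LARP7, MEPCE, HEXIM2, CDK9 and CCNT1 ranged from -1.15 to -0.23. None was called in chromatin by limma, edgeR or DESeq2, and 1 of the 13, CCNT2, a cyclin of P-TEFb, had an unadjusted p under 0.05 in that direction (log2 1.49 ± 0.05 (SE), adjusted p = 1.76e-08). HEXIM1, the P-TEFb inhibitor that binds 7SK, had 1052, 844 and 939 in chromatin and 860, 852 and 842 in nucleoplasm (log2 0.14 ± 0.08 (SE), adjusted p = 0.116). These are mRNAs, so their values say nothing of where the proteins are. With the same ERCC total 8 of the 13 were called in nucleoplasm, where 34.4% of all tested genes were.

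Copies of other small RNAs of RNA polymerase III were counted for comparison in a fit with no minimum span, since their median spans are 106 bases (U6), 102 (Y RNA) and 115 (5S). Of the 46 tested U6 copies, 30 were called in chromatin, where 21.4% of all genes tested in that fit and 71.7% of intronic loci in the fit with a minimum span were, with a median log2 fold change of 2.65 and values from 0.66 to 5.05. Of the 282 U6 copies above 0 in at least 3 libraries, 206 lay inside a same-strand gene. Only 2 Y RNA and 2 5S copies could be tested, with 1 of each called in chromatin. In the same fit 33 of 91 7SL copies were called in nucleoplasm, where 8.6% of all genes were, and the differences between families were not tested.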

How the data were processed

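Nuclei of HAP1 cells were split into chromatin and nucleoplasm, and RNA was sequenced as 50-base stranded single-end short reads (3 libraries per fraction) and as nanopore cDNA of chromatin (2 libraries). For short reads the authors aligned to hg38 with ERCC sequences using HISAT2 2.1.0 (version from the submitters' processing notes), assembled and quantified genes with StringTie, and deposited gene counts divided by DESeq2 size factors, a signal that is comparable between libraries if most genes are level. For long reads the authors used minimap2 and StringTie and deposited TPM per transcript, summed here per gene. How StringTie shared reads that match several copies is not given in the sources used here, and values derive from its coverage per locus.

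Loci were named with GENCODE 44 by stable ID or, for assembled loci, by the same-strand gene whose span overlapped most (Jaccard index at least 0.5). The members and lists were chosen with earlier results of these data known. Log2(normalized count + 1) was fitted with limma 3.58.1 (trended variance, R 4.3.3) over the 26066 genes longer than 200 bases that reached 10 normalized counts in 3 or more libraries, ERCC left out, with Benjamini-Hochberg adjustment. Calls needed an adjusted p under 0.05 and a change over 4-fold. Fold changes are on the log2(value + 1) scale, which understates changes of low loci. Copy and host were compared by limma on their difference in each library, over 3674 pairs. Named copies were the 4 highest in mean level in each class by family and position, the 3 highest and 3 lowest log2 fold changes of each family, the 3 highest in long-read TPM of each family, their hosts and partner genes past both thresholds. Others were named after their values were seen.

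All values (100%) were whole multiples of 1 read (tolerance 0.001 reads). The whole read counts that StringTie assigned to loci were thus recovered, 38895027 to 79523938 per library. On them edgeR 4.0.16 called 5675 genes as higher in chromatin and 2167 as higher in nucleoplasm. DESeq2 1.42.0 called 5846 and 1961, and limma 5531 and 2208. Near 1 read (0.845 to 1.20 normalized counts) values resolve no difference. Floors cover counting error only. Over the 120 tested copies, replicates of a fraction correlated at 0.984 to 0.988 and no pair of libraries was identical. Alternatives were other pseudocounts, filters, scalings (ERCC total, total count, TMM), tools, a replicate block and leaving out each library. The tests were checked on simulated data. Sequences were read from hg38, and those of 7SL and its copies are not reported here.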

Additional observations from a re-analysis of the deposited data

How the results depend on the processing

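Of 1056 alternative values, 985 kept the direction, the side of the threshold or, for a count, a size within 1.5 times, and 19 reversed. The calls of low copies depended most on settings. With a pseudocount of 5, 27 7SL copies and 31 copies inside genes were called in chromatin. With no filter on low values, 85 7SL copies, 25 7SK copies, 101 copies inside genes and 9 outside were called in chromatin. Requiring a mean of 50 normalized counts tests far fewer copies and left 1 7SL copy, 0 7SK copies, 1 copy inside and 0 outside in chromatin, and 16 7SL copies, 5 copies inside and 11 outside in nucleoplasm. With the same ERCC total, 26 7SL copies, 6 7SK copies and 29 copies inside genes were called in chromatin and 8 partner genes in nucleoplasm. With the same total count 0 partner genes were called in nucleoplasm by limma. On the recovered read counts, each with its own scaling, edgeR and DESeq2 called 1 each. With a 2-fold minimum, 6 copies outside genes and 1 partner gene were called in chromatin and 7 partner genes in nucleoplasm.

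Reversals came mostly from the same ERCC total, which took the median over all genes from -0.02 down to -1.33. Under it RN7SK was at -0.71, the median of 7SK copies at -0.42, RN7SKP180 at -0.68, RN7SKP203 at -0.26, RN7SKP227 at -1.05, RN7SKP255 at -0.30, RN7SKP48 at -1.26, RN7SKP71 at -0.51, RN7SKP80 at -0.84, RN7SKP9 at -0.75, and the hosts DHX15 at -1.18, ASPH at -0.62 and SIPA1L1 at -0.85. With a mean of at least 50, the medians of 7SL copies and of copies inside genes were -4.28 and -4.19, and with no filter the median outside was 0.41. RN7SKP185 was at 0.19 with the same total. RN7SKP48 ranged from -0.031 to 0.21 when single libraries were left out, and was below 0 without chromatin replicate 1 or 3.

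Leaving out each library in turn gave 41 to 44 7SL copies called in chromatin and 33 in nucleoplasm, 9 to 10 7SK copies in chromatin, 48 to 50 copies inside genes in chromatin and 10 in nucleoplasm, 3 and 23 outside, 56 to 59 copies more in chromatin than their host and 9 more in nucleoplasm, with RN7SK from 0.54 to 0.69 and RN7SL1 from -4.94 to -4.73. RN7SKP180, RN7SKP185, RN7SKP227 and the host DHX15 lost their adjusted p under 0.05 in at least 1 of these fits. RN7SKP48 gained one without chromatin replicate 2. With the replicate number as a block, the counts were the same, 43 and 33 for 7SL copies and 10 for 7SK copies in chromatin. Libraries of equal number correlated at 0.05 to 0.09 in their deviations, under 0.1, so the numbers were not taken to pair them in the main fit. Yet each library correlated best with its own number, and both fractions came from 3 independent cultures, so pairing by culture is possible. Whether equal numbers mark the same culture is not given in the sources used here. Depth limits the 233 copies that were not tested, most of which had under 10 normalized counts.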

Other observations

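A further locus with the name of a 7SL copy, RN7SL5P, has no row of its own and lies in an assembled row of the plus strand (chr9:9389386-9442380), antisense to PTPRD. This row had 32386, 24635 and 29275 normalized counts in the chromatin libraries and 501665, 586381 and 685952 in the nucleoplasm libraries, 20.6 times higher in nucleoplasm (log2 -4.36 ± 0.13 (SE), adjusted p = 1.59e-08 by limma). It was named after its value was seen and is not among the 353 copies.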
